A study of Homo sapiens with 9 samples.

Results

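Neurotrophins are secreted growth factors of the nervous system, and the transcripts described here are those of their receptors and of BDNF in A673 cells, an established human Ewing sarcoma line with the EWS/FLI translocation. The genes were NGFR, NTRK2, NTRK3, BDNF, NTF3 and SORT1, and every probe set whose annotation names one of them as its only gene was taken, whatever its signal. Of the 6 genes, 4 had a probe set, among 11963 genes with one in the series. This gave 13 of the 19065 single-gene probe sets of the U133A array, namely 1 for NGFR, 4 for NTRK2, 7 for NTRK3 and 1 for BDNF. No probe set could be assigned to NTF3 or SORT1 with the annotation used, and the 2 genes were not analysed here.

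Neurotrophins act through receptors of different build. NGFR, also called p75 or the low-affinity receptor, belongs to the tumour necrosis factor receptor family, binds every neurotrophin, and takes part in signals for survival as well as for death. The Trk receptors are tyrosine kinases that are more selective: NTRK2 (TrkB) answers BDNF, and NTRK3 (TrkC) answers neurotrophin-3. NGFR is also a marker of the neural crest and of Schwann cells. Ewing tumours have features of neural tissue, and the study asked what EZH2, the histone methyltransferase of Polycomb repressive complex 2, contributes to their growth and to a block of neural and endothelial differentiation.

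Gene expression was measured on 9 arrays in 5 groups. Cells were transfected for 48 hours with 5 nM of EZH2 siRNA no.2 (2 arrays), of another EZH2 siRNA whose title carries no number (1 array, called the unnumbered EZH2 siRNA here) or of control siRNA (2 arrays). The histone deacetylase inhibitor trichostatin A (TSA) was given at 100 nM for 24 hours (2 arrays), and other cells had 0.01% DMSO, its solvent, for the same time (2 arrays). All groups are of the same line, grown in the same medium, and the titles call the replicates biological. How they were kept apart (separate cultures or transfections) is not described, so p-values measure the spread between these arrays, which may be in part technical. The depth of an array is not a read count, and it is the number of arrays that limits the precision.

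Across the whole series median signals ran from 125 (control siRNA replicate 1) to 159 (EZH2 siRNA no.2 replicate 2). Every array had a trimmed mean signal of 500.1 to 500.2. Scaling to 1 level gives such equal values, so they do not show that the arrays were alike. The hybridisation controls split them by replicate, with a mean log2 signal of 9.80 to 10.16 on the replicate 1 arrays and the unnumbered EZH2 siRNA array and of 10.43 to 10.53 on the replicate 2 arrays, so values are also given within each replicate number. EZH2, the target of the siRNAs, averaged 36.6% of the control siRNA signal with EZH2 siRNA no.2 and 59.2% with the unnumbered EZH2 siRNA. Of the 7 Ewing sarcoma markers with a probe set, 7 had a mean signal above the mark for low signals, among them CD99, with 14839.9 to 19650.8 on the 9 arrays. Of the 6 Schwann and neural crest markers with a probe set, 3 had a mean below that mark. S100B and PMP2 were low on every array, and SOX10, with 7.22 to 105, on 7 of the 9 arrays. TFAP2A (278 to 621), PAX3 (113 to 202) and ERBB3 (54.1 to 107) were above the mark on all 9 arrays. The mark is a signal of 53.2, the 30th percentile of the probe set means. It was used because the table holds no detection calls. Probe sets with a mean below it were shown but not tested in the main fit.

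Among the 13 probe sets, 7 passed this filter and were tested, and the other 6 stayed below it. The tested ones were the NGFR probe set, 1 of NTRK2 and 5 of NTRK3. BDNF did not reach the mark on any array. Signals are MAS5 units, where a value of one probe set cannot be set against that of another, because probes bind with different strength. In the plot of all 13 probe sets, NGFR spans the widest range of the tested ones, 6.49-fold between its highest and its lowest array.

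**Figure D1:**
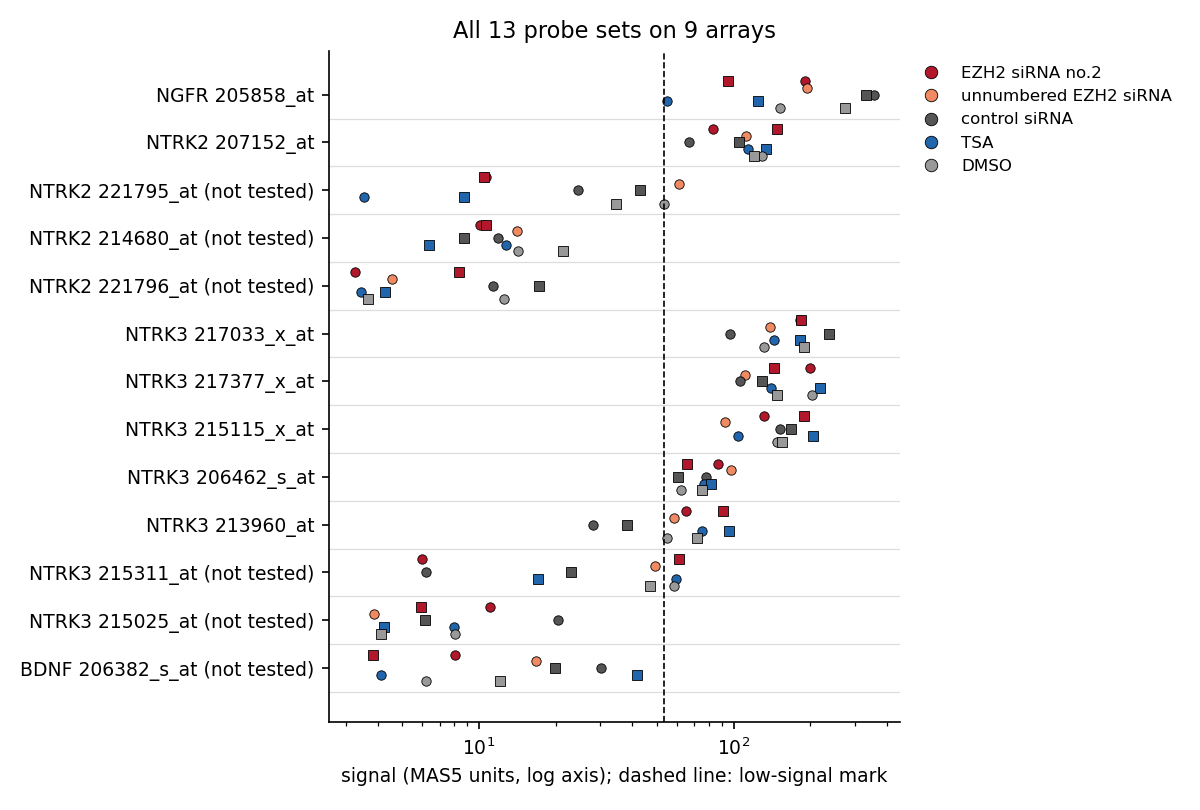
Signal (MAS5 units, log axis) of each of the 13 probe sets on the 9 arrays, 1 point per array (circle: replicate 1 or the single array; square: replicate 2), coloured by group; the dashed line is the low-signal mark of 53.2. The 6 probe sets marked as not tested, BDNF among them, lie mostly left of the line, and NGFR runs from 54.8 with TSA to 356 with control siRNA.

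Of the 7 tested probe sets, that of NGFR had the lowest log2 fold change with EZH2 siRNA no.2 and in TSA. Its signal was lower with EZH2 siRNA no.2 than with control siRNA and lower in TSA than in DMSO, and in both cases the groups did not overlap. With EZH2 siRNA no.2 the signals were 190 (replicate 1) and 95.3 (replicate 2), against 356 and 330 with control siRNA. Both knockdown arrays were thus below both control arrays, and replicate 2 was the lower one. In RNA from whole cultures, fewer cells that carry NGFR and less NGFR transcript per cell cannot be told apart. The mean was 143 ± 67.1 with EZH2 siRNA no.2 and 343 ± 18.1 with control siRNA (SD, n = 2 each), so the knockdown mean was 41.6% of the control mean. The log2 fold change, on the scale log2(signal + 25.1), was −1.19 (SE 0.41, 95% interval −2.10 to −0.29). By replicate number it was −0.82 and −1.56. It did not pass limma's test over all probe sets (adjusted p = 0.920, unadjusted p = 0.0145), where it stood at rank 189 by p-value of 13671 tested. Of all probe sets, 0 passed at an adjusted p under 0.05 (percent called 0), and 5.27% had an unadjusted p under 0.05 (1.72% lower).

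The unnumbered EZH2 siRNA gave an NGFR signal of 194 on its single array, against the same control siRNA arrays of 356 and 330. This array also lay below both controls, at 56.7% of their mean, and close to replicate 1 of EZH2 siRNA no.2. It shares the level of the hybridisation controls with the replicate 1 arrays. The log2 fold change was −0.74 (SE 0.50, 95% interval −1.85 to 0.36, limma adjusted p = 0.951, unadjusted p = 0.168). Its spread was taken from the groups of 2 arrays. Both siRNA comparisons share the control arrays, so their common direction is not 2 separate observations.

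**Figure D2:**
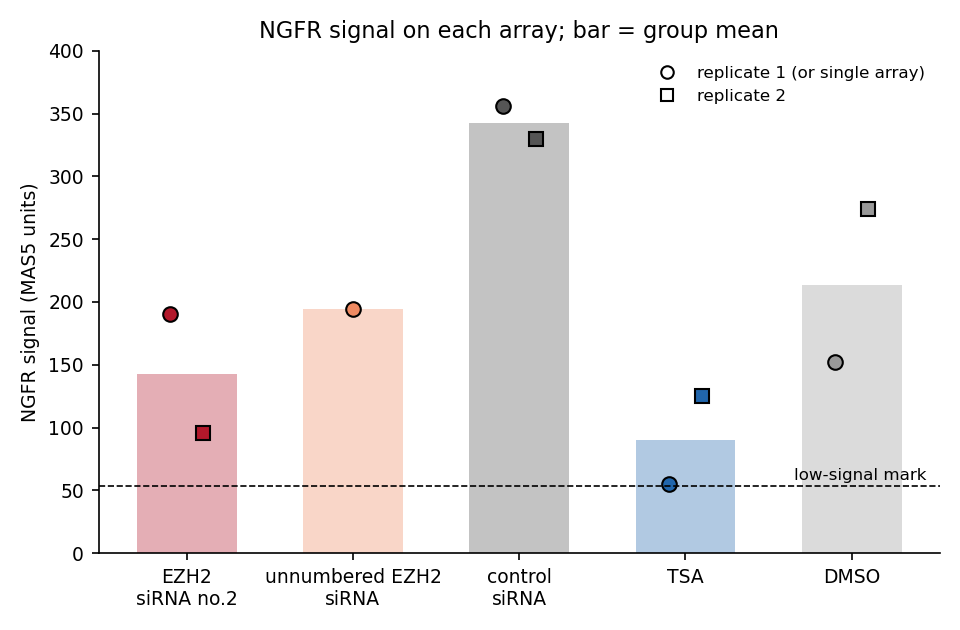
NGFR signal (MAS5 units, linear axis from 0) on each array by group; bars are group means, circles replicate 1 or the single array, squares replicate 2, and the dashed line the low-signal mark of 53.2. The control siRNA arrays (356 and 330) lie above the other 7, and TSA replicate 1 (54.8) lies just above the mark.

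In TSA the NGFR signals were 54.8 (replicate 1) and 125 (replicate 2), against 152 and 274 in DMSO. Both TSA arrays were below both DMSO arrays, but replicates of each group lay far apart, with replicate 2 the higher in TSA and in DMSO alike. The mean was 89.9 ± 49.6 in TSA and 213 ± 85.9 in DMSO (SD, n = 2 each), which puts TSA at 42.2% of DMSO. The log2 fold change was −1.07 (SE 0.41, 95% interval −1.98 to −0.17, limma adjusted p = 1.00, unadjusted p = 0.0243), and by replicate number it was −1.15 and −0.99. The summed signal of the 6 Schwann and neural crest markers was 799.7 to 907.7 in TSA and 473 to 604 in DMSO, opposite in direction to NGFR, and 618 to 829 with EZH2 siRNA no.2 and 532 to 899.8 with control siRNA. The summed signal of the 7 Ewing sarcoma markers went the same way as NGFR without overlap, with 34308 to 35281 in TSA and 37680.4 to 40964 in DMSO, and 29670.2 to 32137 with EZH2 siRNA no.2 and 35870.3 to 40069 with control siRNA. That of the 5 neuron markers was 9066 to 10153 in TSA and 11085 to 11129 in DMSO, and it overlapped with EZH2 siRNA no.2 (9800.3 to 11582) and control siRNA (10009.7 to 11287). Of the other lists, blood (258 to 444) and epithelial markers (7141 to 7451) summed higher with EZH2 siRNA no.2 than with control siRNA (201 to 217, and 4660 to 7061), while PTPRC, CD14, EPCAM, KRT19 and CDH1 were low on all 9 arrays. Each sum is weighted towards its brightest genes, with means over the 9 arrays of 431 for TFAP2A, 17676 for CD99, 7861 for TUBB3 and 6424 for KRT18. Among the Schwann and neural crest markers, S100B, PMP2 and SOX10 averaged 6.67, 16.6 and 34.5. ERBB3 averaged 80.0 in TSA and 83.3 in DMSO. A sum thus gives no direction for its list as a set. The part of these markers in the NGFR result was not tested. NGFR ranked 114 of 13671 by p-value here. Of all probe sets, 0 passed at an adjusted p under 0.05 (percent called 0), 2.41% had an unadjusted p under 0.05, and 12.1% had a TSA group wholly below the DMSO group. With EZH2 siRNA no.2 the share wholly below control siRNA was 12.8%.

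The NGFR differences of the 2 treatments were not told apart by the test. The difference between the effect of EZH2 siRNA no.2 and that of TSA was −0.12 on the log2 scale (SE 0.58, 95% interval −1.40 to 1.16, limma adjusted p = 1.00, unadjusted p = 0.842), with 0 of all probe sets past the adjusted threshold and 1.71% at an unadjusted p under 0.05. The interval spans 0 with wide margins, so it does not show that the effects are of 1 size. Its sign was not stable: the value was 0.26 without DMSO replicate 1. The 2 comparisons share no arrays. The transfected cells were collected at 48 hours and the TSA and DMSO cells at 24 hours.

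The 2 kinds of control differed too. NGFR averaged 213 ± 85.9 in DMSO and 343 ± 18.1 with control siRNA, and both DMSO arrays were below both control siRNA arrays (log2 −0.67, SE 0.41, limma adjusted p = 1.00, unadjusted p = 0.129; 4.26% of all probe sets had an unadjusted p under 0.05). Time, transfection and solvent differ between these groups and cannot be told apart. DMSO replicate 1 carried most of the gap, with log2 −1.10 for replicate 1 and −0.25 for replicate 2. Without DMSO replicate 1 the log2 difference was −0.30. The DMSO arrays (152 and 274) overlapped with those of the EZH2 siRNAs (95.3, 190 and 194). In order of mean signal the groups stood as control siRNA, DMSO, unnumbered EZH2 siRNA, EZH2 siRNA no.2 and TSA. Neighbours below control siRNA in this order overlapped or lay within the spread of their replicates.

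EZH2 and NGFR signals were set side by side on each array. Among the 5 transfected arrays, the lowest EZH2 signal (271, EZH2 siRNA no.2 replicate 2) came with the lowest NGFR signal (95.3). EZH2 signals of 572 (EZH2 siRNA no.2 replicate 1) and 681 (unnumbered EZH2 siRNA) came with NGFR signals of 190 and 194. The control siRNA arrays had EZH2 signals of 1130.1 and 1172 and NGFR signals of 356 and 330. The TSA arrays did not lie along this order: their EZH2 signals were 1257 and 1055, near those of control siRNA, and their NGFR signals 54.8 and 125. In DMSO the EZH2 signals were 990.1 and 861 and the NGFR signals 152 and 274. Time, transfection and solvent differ between the transfected and the other arrays, and a part of the EZH2 level in the NGFR signal was not tested. No correlation was computed over the transfected arrays, which number 5.

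**Figure D3:**
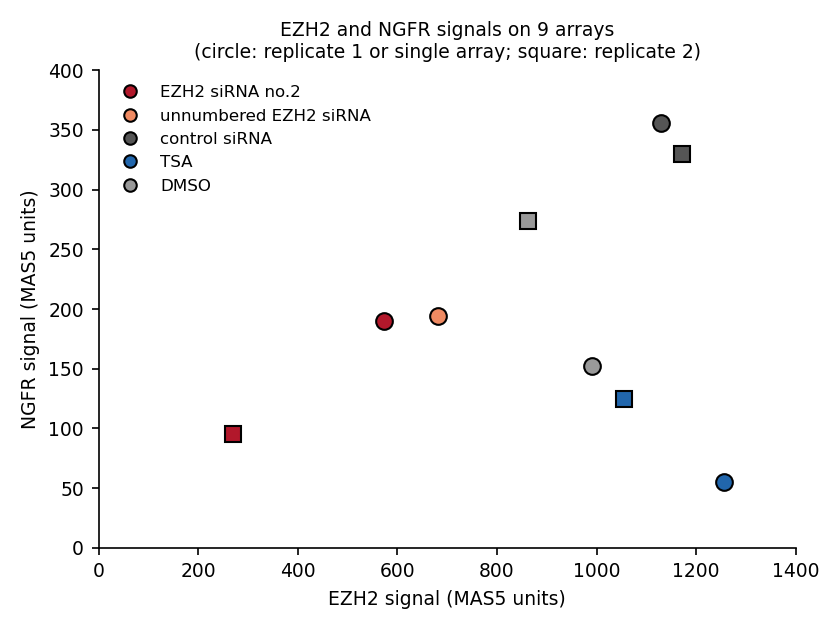
EZH2 signal (x axis) against NGFR signal (y axis), both in MAS5 units, 1 point per array, coloured by group (circle: replicate 1 or the single array; square: replicate 2). The 3 EZH2 siRNA arrays lie at EZH2 signals of 271 to 681 and the 2 control siRNA arrays at the upper right, while the TSA arrays combine EZH2 signals of 1257 and 1055 with NGFR signals of 54.8 and 125.

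The gene whose pattern over the 9 arrays was most like that of NGFR was MRPL39, a mitochondrial ribosomal protein (Pearson r = 0.937 across arrays, n = 9). It was followed by B3GAT3, an enzyme that builds the linker of glycosaminoglycan chains (r = 0.933), and HAT1, a histone acetyltransferase (r = 0.922). Their ranges were narrower. MRPL39, for instance, averaged 1537 with EZH2 siRNA no.2 and 2124 with control siRNA, and 1354 in TSA and 1766 in DMSO. In all, 6 probe sets of other genes reached r over 0.9 with NGFR, and since the arrays share 5 treatment groups these correlations describe these arrays only.

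Promoter sequence is shown for the Trk receptor genes, because Polycomb repressive complex 2 is known to occupy promoters rich in CG dinucleotides in mammalian cells. The 300-base windows, matched for 5 of the 6 genes, come from RefSeq (build GRCh38.p14) and run from 250 bases before to 50 bases after an annotated start. Such windows were at hand for NTRK2 (4 starts), NTRK3 (1 start), BDNF (5 starts), NTF3 (2 starts) and SORT1 (2 starts). Those of NTF3 and SORT1 are not described, as these genes were not analysed here. There was no window for NGFR, so the CG counts do not bear on it. CG dinucleotides are in capitals. The NTRK3 window lies on the minus strand at chr15:88256690-88256989 and the CG-richest of the NTRK2 windows on the plus strand at chr9:84669783-84670082.
NTRK3: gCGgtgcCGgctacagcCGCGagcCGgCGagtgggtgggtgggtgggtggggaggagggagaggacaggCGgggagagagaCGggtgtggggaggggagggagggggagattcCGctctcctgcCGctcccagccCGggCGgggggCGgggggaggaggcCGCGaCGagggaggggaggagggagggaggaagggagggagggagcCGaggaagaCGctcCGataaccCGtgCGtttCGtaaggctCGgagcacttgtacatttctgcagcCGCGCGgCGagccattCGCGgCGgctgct
NTRK2: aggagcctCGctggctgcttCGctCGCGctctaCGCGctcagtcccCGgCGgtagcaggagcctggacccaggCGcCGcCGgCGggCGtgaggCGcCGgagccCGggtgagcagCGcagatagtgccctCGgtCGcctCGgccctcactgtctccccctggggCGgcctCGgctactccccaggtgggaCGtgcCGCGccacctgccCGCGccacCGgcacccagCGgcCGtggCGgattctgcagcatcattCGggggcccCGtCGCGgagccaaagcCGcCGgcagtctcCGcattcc
The motif searched was CG, which reads the same on both strands. The NTRK3 window holds 30 CG dinucleotides, and 22.4% of all 35116 promoter windows hold as many or more. The NTRK2 window holds 38, a number reached by 9.91% of windows, while the other NTRK2 windows hold 10, 17 and 3. The BDNF windows hold 6 to 18, and the median over all windows was 14. These counts describe the letters of the windows and say nothing of what was bound there.

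NTRK2, the TrkB kinase that answers BDNF, showed no difference past the test in any comparison. Its tested probe set, 207152_at, had signals of 83.1 and 149 with EZH2 siRNA no.2 and 112 with the unnumbered EZH2 siRNA, against 66.7 and 105 with control siRNA. The groups overlapped for EZH2 siRNA no.2, since its replicate 1 lay below control siRNA replicate 2. The means were 116 ± 46.4 with EZH2 siRNA no.2 and 85.7 ± 26.8 with control siRNA (SD, n = 2 each; log2 0.33, SE 0.36, 95% interval −0.45 to 1.11, limma adjusted p = 0.951). In TSA the signals were 114 and 134, against 129 and 120 in DMSO. These 4 values lie close together, with means of 124 ± 14.8 in TSA and 125 ± 5.98 in DMSO (log2 −0.0099, SE 0.36, 95% interval −0.79 to 0.77, limma adjusted p = 1.00). Both DMSO arrays were above both control siRNA arrays (log2 0.46, SE 0.36, limma adjusted p = 1.00).

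The other 3 NTRK2 probe sets were at low signals. Probe set 221795_at had 10.6 and 10.4 with EZH2 siRNA no.2 and 60.8 with the unnumbered EZH2 siRNA, against 24.4 and 42.9 with control siRNA. It had 3.54 and 8.74 in TSA, against 53.4 and 34.6 in DMSO. The 2 arrays above the mark of 53.2 were the unnumbered EZH2 siRNA and DMSO replicate 1, so the 2 EZH2 siRNAs lay on opposite sides of the control arrays. Probe sets 214680_at (6.37 to 21.4) and 221796_at (3.26 to 17.3) were low on all 9 arrays, and at such signals differences between groups were not read.

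NTRK3, the TrkC kinase that answers neurotrophin-3, was the member with the most probe sets, and they did not move together. Probe set 213960_at had signals of 65.1 and 91.0 with EZH2 siRNA no.2 and 58.2 with the unnumbered EZH2 siRNA, against 28.1 and 38.2 with control siRNA. The control siRNA arrays were the only ones of the 9 below the low-signal mark for this probe set. The means were 78.1 ± 18.4 with EZH2 siRNA no.2 and 33.2 ± 7.11 with control siRNA (SD, n = 2 each; log2 0.82, SE 0.38, 95% interval −0.02 to 1.65, limma adjusted p = 0.920, unadjusted p = 0.0539). Since both control siRNA signals were low, the size of this value depends on the pseudocount: it was 1.11 with the smaller pseudocount and 0.45 with the larger one. The DMSO arrays, at 55.0 and 71.8, likewise lay above both control siRNA arrays (log2 0.60, SE 0.38, limma adjusted p = 1.00, unadjusted p = 0.141). In TSA the signals were 75.3 and 96.3, which did not overlap with DMSO (log2 0.33, SE 0.38, limma adjusted p = 1.00, unadjusted p = 0.408). The difference between the siRNA and the TSA effect was 0.49 (SE 0.54, limma adjusted p = 1.00).

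The probe set 217377_x_at, whose suffix marks probes that may also bind other transcripts, had 199 and 145 with EZH2 siRNA no.2 and 111 with the unnumbered EZH2 siRNA, against 106 and 130 with control siRNA. The 2 arrays of EZH2 siRNA no.2 were above both controls, and the unnumbered EZH2 siRNA lay between the controls. The log2 fold change was 0.45 with EZH2 siRNA no.2 (SE 0.33, limma adjusted p = 0.940) and −0.07 with the unnumbered EZH2 siRNA (SE 0.41, limma adjusted p = 0.989). In TSA the signals were 140 and 219, against 204 and 148 in DMSO, with overlap (log2 0.02, SE 0.33, limma adjusted p = 1.00). DMSO was above control siRNA on both arrays here too (log2 0.48, SE 0.33, limma adjusted p = 1.00).

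The other 3 tested NTRK3 probe sets differed less or were split by array. Probe set 217033_x_at had 183 and 184 with EZH2 siRNA no.2, against 96.6 and 237 with control siRNA, so the control arrays enclosed the knockdown arrays and the replicate numbers gave log2 fold changes of 0.78 and −0.32. Probe set 215115_x_at had 132 and 190 with EZH2 siRNA no.2 and 92.7 with the unnumbered EZH2 siRNA, against 152 and 169 with control siRNA. It was the unnumbered EZH2 siRNA that stood lowest there (log2 −0.65, SE 0.43, limma adjusted p = 0.951). Probe set 206462_s_at stayed between 60.3 and 97.6 on all 9 arrays, a 1.62-fold range, the narrowest of the 13. Between TSA and DMSO these 3 gave log2 fold changes of 0.03, −0.03 and 0.15, in the order 217033_x_at, 215115_x_at and 206462_s_at. Under other scalings of the arrays 217033_x_at and 217377_x_at changed sign in TSA, and so did 206462_s_at with EZH2 siRNA no.2 (log2 0.11).

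Among the 5 tested NTRK3 probe sets, pairwise correlations over the 9 arrays ran from −0.542 (206462_s_at with 215115_x_at) to 0.555 (213960_at with 217377_x_at). Probe sets of 1 gene can read different transcript variants, and the files do not say which. The 2 NTRK3 probe sets below the filter were 215025_at, low on all 9 arrays (3.89 to 20.5), and 215311_at, low on 6 of 9. Probe set 215311_at had 5.998 and 60.9 with EZH2 siRNA no.2 and 49.2 with the unnumbered EZH2 siRNA, against 6.19 and 23.0 with control siRNA. In TSA it had 59.5 and 17.0, against 58.3 and 47.1 in DMSO. In EZH2 siRNA no.2, in TSA and in DMSO its replicates lay on either side of the mark of 53.2, and both DMSO arrays lay above both control siRNA arrays.

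BDNF, the ligand of NTRK2, was low on all 9 arrays. Its probe set had signals of 8.07 and 3.83 with EZH2 siRNA no.2 and 16.7 with the unnumbered EZH2 siRNA, against 30.2 and 19.9 with control siRNA. In TSA it had 4.11 and 41.6, against 6.22 and 12.1 in DMSO. The highest and one of the lowest values thus belonged to the same group, TSA. The order of such values was not read, and a transcript at this signal cannot be told from background in these files.

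**Figure D4:**
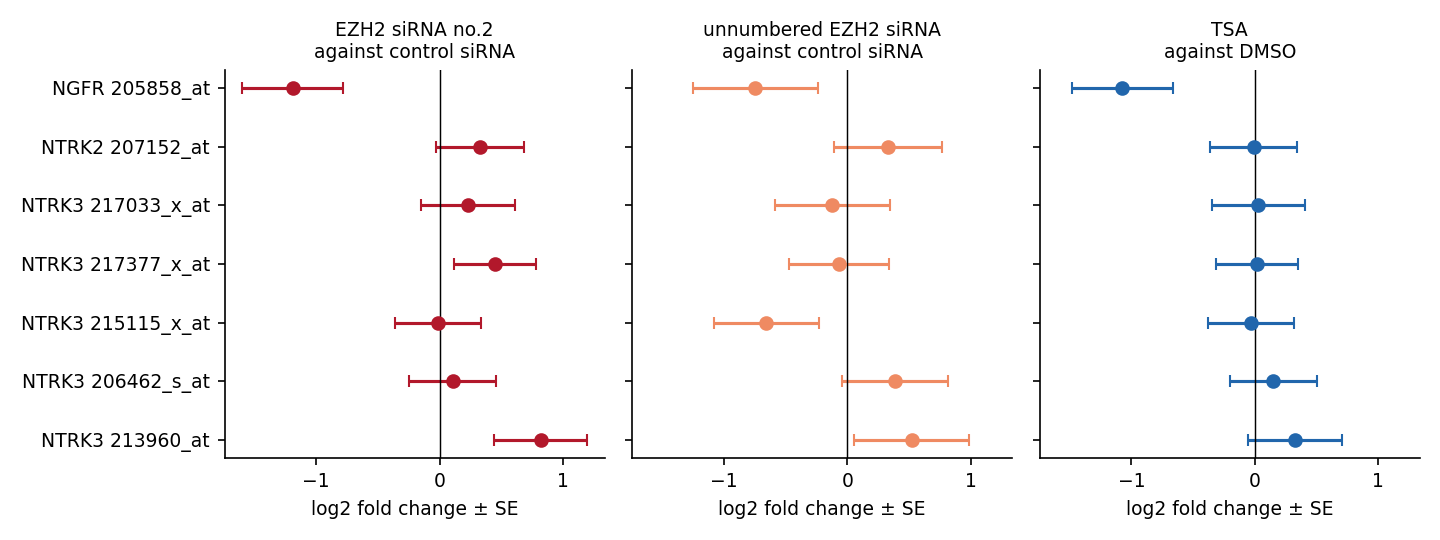
Log2 fold change with its standard error (x axis) of the 7 tested probe sets (y axis) with EZH2 siRNA no.2 and with the unnumbered EZH2 siRNA, each against control siRNA, and in TSA against DMSO. NGFR lies left of 0 in each panel (−1.19, −0.74 and −1.07), and the NTRK2 and NTRK3 probe sets lie between −0.65 and 0.82.

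Over the 7 tested probe sets, 0 passed at an adjusted p under 0.05 in any comparison. At an unadjusted p under 0.05, 1 of 7 was lower with EZH2 siRNA no.2 and 1 of 7 in TSA, NGFR in both cases, and none was higher; among all probe sets, 1.72% and 1.17% were lower at such a p in these comparisons. With the unnumbered EZH2 siRNA it was 0 of 7, where 5.00% of all probe sets had such a p. Groups did not overlap for 3 of 7 with EZH2 siRNA no.2, against 35.2% of all probe sets, and for 3 of 7 in TSA, against 28.2%. For the unnumbered EZH2 siRNA it was 5 of 7, against 67.0% of all probe sets, and for DMSO against control siRNA 4 of 7, against 33.9%. Since 5 of the 7 are probe sets of NTRK3, these counts and the median lean towards 1 gene. The median log2 fold change of the 7 was 0.23 with EZH2 siRNA no.2, against 0.07 over all 13671 probe sets. It was 0.02 in TSA, against 0.04 over all, and −0.07 for the unnumbered EZH2 siRNA, against 0.07 over all. As a description over the 9 arrays, NGFR correlated with NTRK2 (207152_at) at r = −0.578. With the tested NTRK3 probe sets its r was −0.742 (213960_at), −0.349 (217377_x_at), −0.017 (206462_s_at), −0.007 (217033_x_at) and 0.141 (215115_x_at). NTRK2 correlated with these NTRK3 probe sets at r from −0.308 (206462_s_at) to 0.757 (213960_at).

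The rest of the pathway was followed in 8 lists with 105 gene symbols, of which 77 had a probe set past the filter. With EZH2 siRNA no.2, 0 of the 77 passed at an adjusted p under 0.05. At an unadjusted p under 0.05, 3 were higher and 1 lower, which is 5.19% against 5.53% of all 9103 genes. In TSA 0 passed, and 1 was higher and 0 lower at an unadjusted p under 0.05, or 1.30% against 2.43% of all genes. With the unnumbered EZH2 siRNA 0 passed, and 4 were higher and 1 lower at an unadjusted p under 0.05, or 6.49% against 4.89% of all genes. The median log2 fold change of the 77 was 0.16 with EZH2 siRNA no.2, against 0.08 over all genes, and 0.04 in TSA, against 0.03 over all genes. As a measure for the counts that follow, 58.5% of all genes had a log2 fold change above 0 with EZH2 siRNA no.2, and 53.7% in TSA. Values are of the brightest probe set of a gene.

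Partners of NGFR inside the cell had 8 of 13 members positive with EZH2 siRNA no.2 (median log2 0.09) and 6 of 13 in TSA (median −0.04), with 0 of 13 at an unadjusted p under 0.05 in either. The members with the smallest p were, with EZH2 siRNA no.2, IRAK1, a kinase, with 1898 ± 267 under EZH2 siRNA no.2 and 1450.5 ± 273 with control siRNA (log2 0.39, SE 0.26), and, in TSA, RIPK2, another kinase, with 481 ± 71.5 in TSA and 652 ± 21.0 in DMSO (log2 −0.43, SE 0.25). BEX3, an adaptor that binds the death domain of NGFR, had a bright signal throughout, with 10218 ± 1693 in TSA and 12501 ± 136 in DMSO (log2 −0.30, SE 0.24). KIDINS220, a scaffold that binds NGFR and Trk receptors, had 1520.5 ± 340.3 under EZH2 siRNA no.2 and 1168 ± 123 with control siRNA (log2 0.36, SE 0.27). The sheddase and gamma-secretase genes, whose products cut the NGFR protein, had 5 of 6 positive with EZH2 siRNA no.2 (median 0.14) and 4 of 6 in TSA (median 0.13). APH1A, a gamma-secretase subunit, had the smallest p of the list with EZH2 siRNA no.2, with 811 ± 171 there and 641 ± 3.72 with control siRNA (log2 0.31, SE 0.25). Its signal was 1666 on the single array of the unnumbered EZH2 siRNA (log2 1.34, SE 0.31, limma adjusted p = 0.951, unadjusted p = 0.00109). ADAM10, a sheddase, had 2235 ± 6.89 under EZH2 siRNA no.2 and 1944 ± 122 with control siRNA (log2 0.20, SE 0.27). Enzymes that process proneurotrophins had 5 of 6 positive with EZH2 siRNA no.2 (median 0.22) and 4 of 6 in TSA (median 0.04). PCSK6, a proprotein convertase, had 113 ± 21.3 under EZH2 siRNA no.2 and 64.7 ± 8.67 with control siRNA (log2 0.61, SE 0.39). It was also higher in DMSO, at 117 ± 62.0, than with control siRNA (log2 0.59, SE 0.39). Of the sortilin family, SORL1 alone was tested, with 210.1 ± 88.1 under EZH2 siRNA no.2 and 108 ± 71.9 with control siRNA, which overlapped (log2 0.89, SE 0.43). SORL1 was also higher in DMSO, at 178 ± 11.5, than with control siRNA (log2 0.73, SE 0.43).

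Adaptors of the Trk receptors had 13 of 16 positive with EZH2 siRNA no.2 (median log2 0.35) and 11 of 16 in TSA (median 0.15). SHC1, which couples Trk receptors to Ras, had 5498 ± 56.3 under EZH2 siRNA no.2 and 3612 ± 59.2 with control siRNA (log2 0.60, SE 0.21, limma adjusted p = 0.920, unadjusted p = 0.0148). SH2B1, an adaptor bound by active Trk kinases, had 338 ± 85.8 under EZH2 siRNA no.2 and 237 ± 4.81 with control siRNA (log2 0.45, SE 0.30), and 419 ± 120 in TSA and 286 ± 50.8 in DMSO (log2 0.50, SE 0.30). In DMSO against control siRNA 15 of 16 adaptors were positive (median 0.19), and so were 56.6% of all genes. Time, transfection and solvent differ between DMSO and control siRNA, and the cause of these values was not tested. Kinases downstream of Trk had 5 of 14 positive with EZH2 siRNA no.2 (median −0.12) and 8 of 14 in TSA (median 0.01), and AKT1 had the smallest p with EZH2 siRNA no.2 (log2 0.74, SE 0.30, limma adjusted p = 0.920), with 976 ± 148 there and 575 ± 98.2 with control siRNA. In TSA it was RPS6KA1, a ribosomal S6 kinase, with 99.4 ± 40.6 in TSA and 185 ± 27.2 in DMSO (log2 −0.79, SE 0.37, limma adjusted p = 1.00).

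The list of genes taken as induced by neurotrophins had 9 of 10 positive with EZH2 siRNA no.2 (median log2 0.22) and 7 of 10 in TSA (median 0.28). These counts include the transcription factor CREB1 (log2 0.13 with EZH2 siRNA no.2 and 0.36 in TSA). ARC, an immediate early gene of neurons, had the smallest p of the list in both comparisons. It averaged 324 ± 16.6 under EZH2 siRNA no.2 and 149 ± 13.1 with control siRNA (log2 1.01, SE 0.39, limma adjusted p = 0.920, unadjusted p = 0.0248), and 222 ± 94.2 in TSA and 104 ± 63.1 in DMSO (log2 0.98, SE 0.39, limma adjusted p = 1.00, unadjusted p = 0.0278). Its groups did not overlap in either comparison. FOS, another immediate early gene, had 238 ± 71.1 under EZH2 siRNA no.2 and 137 ± 67.1 with control siRNA (log2 0.74, SE 0.40). In TSA it pointed the other way, with 116 ± 29.9 in TSA and 173 ± 75.4 in DMSO, which overlapped (log2 −0.45, SE 0.40), and the difference of the effects was 1.19 (SE 0.57, limma adjusted p = 1.00). EGR1, a zinc finger factor, had 733 ± 423 in TSA and 403 ± 72.4 in DMSO, which overlapped (log2 0.71, SE 0.48). Other neurotrophic factors and receptors had 6 of 11 positive with EZH2 siRNA no.2 (median 0.10) and 4 of 11 in TSA (median −0.09). RET, the receptor of the GDNF family, had the smallest p with EZH2 siRNA no.2, with 1075 ± 243 against 1707 ± 160.0 with control siRNA (log2 −0.67, SE 0.26, limma adjusted p = 0.920). RET was also lower in DMSO, at 1124 ± 34.7, than with control siRNA (log2 −0.59, SE 0.26, limma adjusted p = 1.00), and the cause was not tested. In TSA it was NRG1, a ligand of ERBB receptors, with 252 ± 57.0 in TSA and 408 ± 12.0 in DMSO (log2 −0.66, SE 0.33, limma adjusted p = 1.00).

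The NGFR values rest on 2 arrays a group, and single arrays moved them. With EZH2 siRNA no.2 the log2 fold change was −1.61 without its replicate 1 and −0.77 without its replicate 2. In TSA it was −0.62 without TSA replicate 1 and −0.70 without DMSO replicate 2, and −1.53 and −1.45 without the other array of each group. It stayed below 0 in all 21 alternatives of each of these comparisons, but most of these could not turn it. Leaving out an array could not, since the groups did not overlap. Filters, blocks, the eBayes setting and the choice of probe sets left the value as it was. Other pseudocounts and normalizations gave −1.32 to −0.93 with EZH2 siRNA no.2 and −1.24 to −0.76 in TSA. With no compared array left out, the limma adjusted p was 0.507 to 0.967 with EZH2 siRNA no.2 and 0.979 or more in TSA.

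**Figure D5:**
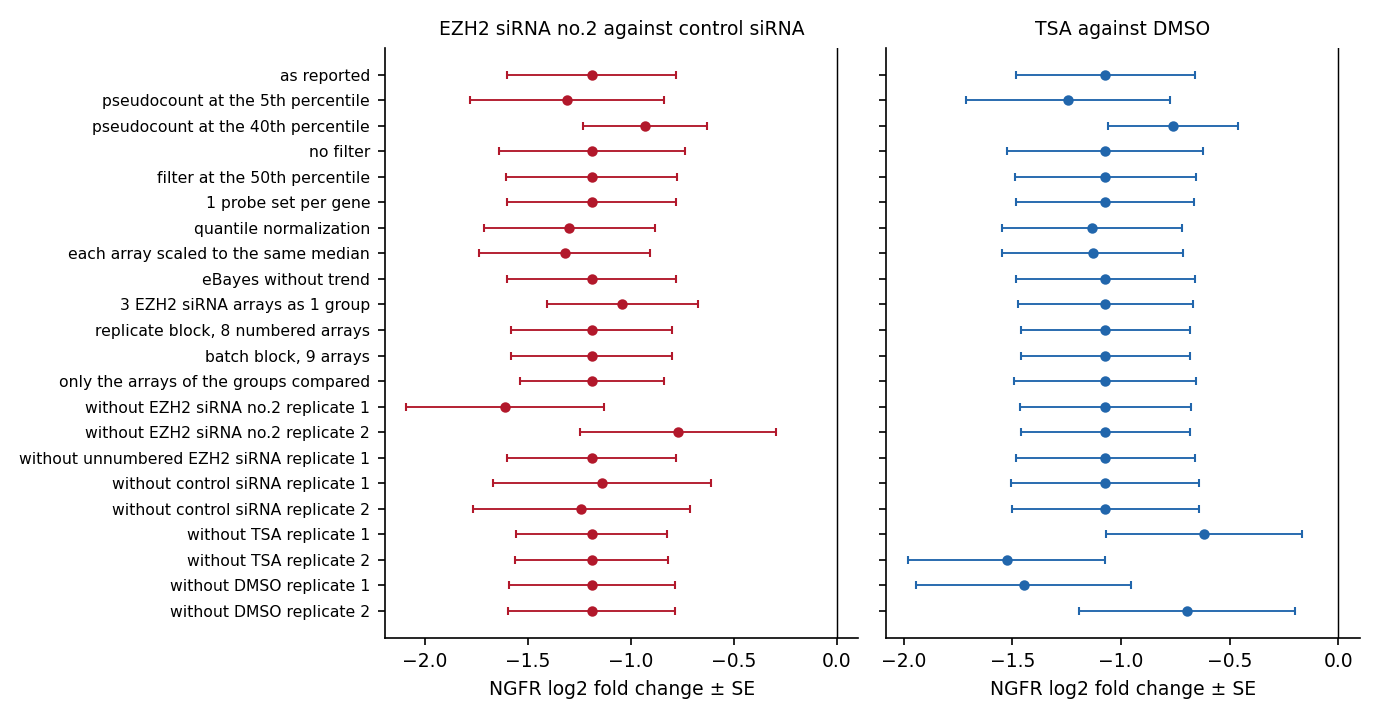
NGFR log2 fold change with its standard error (x axis) as reported and under each alternative (y axis), with EZH2 siRNA no.2 against control siRNA (left) and in TSA against DMSO (right). The values run from −1.61 to −0.77 on the left and from −1.53 to −0.62 on the right.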

How the data were processed

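Gene expression of A673 cells was measured on 9 Affymetrix U133A arrays. The deposited intensity values are probe set signals that the authors made with MAS5, per the submitters' processing notes, which give no version.

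Arrays were grouped by their titles. Of 22283 probe sets, 19065 name 1 gene, 1043 several and 2107 none, and 68 are controls. Signals became log2(signal + 25.1), the pseudocount being the 20th percentile of all values. Single-gene probe sets with a mean signal of at least 53.2 (30th percentile of probe set means), 13671 in all, were fitted together with limma 3.58.1 in R 4.3.3 (group means of 5 groups, eBayes with trend, 4 residual degrees of freedom), with Benjamini-Hochberg adjustment over all of them, two-sided, at 0.05. With 2 arrays a side the smallest exact permutation p is 0.333, and no such test was run. The fit was tested on simulated data.

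All member probe sets are named. Of the 3 genes per pathway list with the smallest p, the text prints 1 or 2. Likeness was Pearson's r over the 9 arrays, 3 genes for the brightest tested probe set of a member. Members and lists were chosen with earlier results of these data known. Alternatives were other pseudocounts, filters, normalizations, probe set choices, array choices and blocks, and each array left out in turn.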

Additional observations from a re-analysis of the deposited data

How the results depend on the processing

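None of the reported values of the 7 tested probe sets passed the adjusted threshold under any alternative. NGFR kept its direction in the siRNA, TSA and DMSO comparisons under the other pseudocounts and normalizations. Leaving out arrays could not turn it, since its groups did not overlap in these comparisons. Filters, probe set choices and the eBayes setting left its value as it was. Over all probe sets the count past the adjusted threshold stayed at 0, except for 1 with the unnumbered EZH2 siRNA when only the arrays compared were fitted. The number at an unadjusted p under 0.05 was 721 with EZH2 siRNA no.2, and 1183 with a replicate block, 1184 with a batch block from the hybridisation controls and 1091 with the 3 EZH2 siRNA arrays as 1 group. It was 684 with the unnumbered EZH2 siRNA (1038 with no filter, 1115 with the batch block), 330 in TSA (622 with no filter, 601 with the replicate block, 599 with the batch block), 582 for DMSO against control siRNA (967 and 973 with the blocks) and 234 for the difference of effects (493 with no filter, 149 with the stricter filter, 448 and 452 with the blocks). Leaving out 1 array gave 490 to 887, 562 to 907, 145 to 1033, 313 to 724 and 163 to 525 in the same order. The cause was not tested. Replicate numbers share no stated day or culture; deviations of same-numbered arrays from their group means correlated at 0.099 to 0.410, and under the replicate block NGFR gave −1.19 with EZH2 siRNA no.2 (adjusted p = 0.511) and −1.07 in TSA (adjusted p = 0.979).

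Directions turned in these cases. After quantile normalization and after scaling arrays to 1 median, 206462_s_at gave −0.0333 and −0.0038 with EZH2 siRNA no.2, and in TSA 217033_x_at gave −0.0389 and −0.0364 and 217377_x_at −0.0095 and −0.0533. With the batch block 217033_x_at gave 0.11 for the unnumbered EZH2 siRNA. The NGFR difference of effects was 0.0304 with the 3 EZH2 siRNA arrays as 1 group. Leaving out 1 array in turn gave, with EZH2 siRNA no.2, −0.0124 to 0.67 for 207152_at, −0.0458 to 0.26 for 206462_s_at, −0.24 to 0.21 for 215115_x_at and −0.33 to 0.78 for 217033_x_at. In TSA it gave −0.11 to 0.0914 for 207152_at, −0.44 to 0.39 for 215115_x_at, −0.19 to 0.25 for 217033_x_at and −0.27 to 0.30 for 217377_x_at. With the unnumbered EZH2 siRNA it gave −0.67 to 0.43 for 217033_x_at and −0.19 to 0.0489 for 217377_x_at, and for the NGFR difference of effects −0.57 to 0.34. Scaling to the same median moved the median of all probe sets with EZH2 siRNA no.2 to −0.06, against 0.07, and the split at an unadjusted p under 0.05 to 230 higher and 458 lower, against 486 and 235; quantile normalization gave 352 and 305. In TSA the split was 94 and 209 with the scaling, against 170 and 160. The NGFR log2 fold change with EZH2 siRNA no.2 was −1.32 with that scaling. No value could be had for dim probe sets under the stricter filter, for those that are not the brightest of their gene, or for the unnumbered EZH2 siRNA without its array or with the replicate block.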

Other observations

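The genes most like NTRK2 (207152_at) over the 9 arrays were KCTD13 (r = 0.955), NUCKS1 (r = 0.950) and GGTLC1 (r = 0.945), among 31 probe sets with r over 0.9. Those most like NTRK3 (217033_x_at) were EXT1 (r = 0.970), CHD7 (r = 0.967) and MDN1 (r = 0.967), again among 31.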
